A study of Mus musculus with 13 samples.

Results

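Insulin signals through its receptor, encoded by Insr, and the adaptor proteins that dock on it. The sites analysed here are the rows of a liver methylation table whose gene symbol is exactly Insr, Irs1, Irs2, Grb10, Grb14, Pik3r1, Akt1, Akt2 or Rictor. These rows numbered 20 of 23904 and covered 8 of the 9 genes. Akt1, a serine/threonine kinase of the pathway, had no row and is not analysed here. The table lists only sites that passed the authors' limits, so a gene without a row was not thereby shown to be unchanged.

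The study measured DNA methylation by targeted bisulfite sequencing of genomic DNA from mouse liver, in which cytosines without a methyl group are converted and read as thymine. By the diet label, 7 mice received low fat/low sucrose, written LFLS from here on, and 6 received high fat/high sucrose, written HFHS. The sources used here do not give strain, sex, age or time on the diet, and name no allele or drug. The question posed is at which sites the diets differ in liver methylation. Values come as 1 average per diet and site, so the spread between mice and the read depth are unknown, and no SD or n stands behind any value below. Whole liver was measured, so a change in the mix of cell types and a change within one cell type cannot be told apart.

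In a responding cell, the insulin receptor phosphorylates the docking proteins IRS1 and IRS2, which recruit PI3-kinase through its regulatory subunit p85 alpha, encoded by Pik3r1. The lipid that PI3-kinase makes brings AKT kinases to the membrane, where a complex built around RICTOR, called mTORC2, phosphorylates them. GRB10 and GRB14 bind the active receptor and restrain it, and Grb10 is also an imprinted gene. In liver this pathway lowers glucose output and raises lipid and glycogen synthesis. Cytosine methylation is read here at CpG sites, a cytosine followed by a guanine, and dense runs of them are CpG islands, flanked by shores.

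Most listed sites of these genes were more methylated in HFHS than in LFLS. Of the 20 sites in the authors' deposited table, 18 were higher in HFHS and 2 were lower. Over all listed sites 57.6% were higher. Irs1, Irs2, Grb10, Grb14, Akt2 and Rictor carried rises at each of their sites, Insr a fall, and Pik3r1 1 of each. The median listed difference over the 20 sites was 10.9 percentage points, against 7.41 points over all sites of the authors' deposited table. Rises at these genes had a median of 11.6 points, against 11.7 points for all rises in the authors' deposited table, so their size was near that of listed rises in general. The sites were few and in part neighbours: joined within 1000 bp they formed 14 clusters. By the direction of the site of smallest p in each cluster, 12 (85.7%) were higher, against 55.6% of all 18409 clusters.

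**Figure D1:**
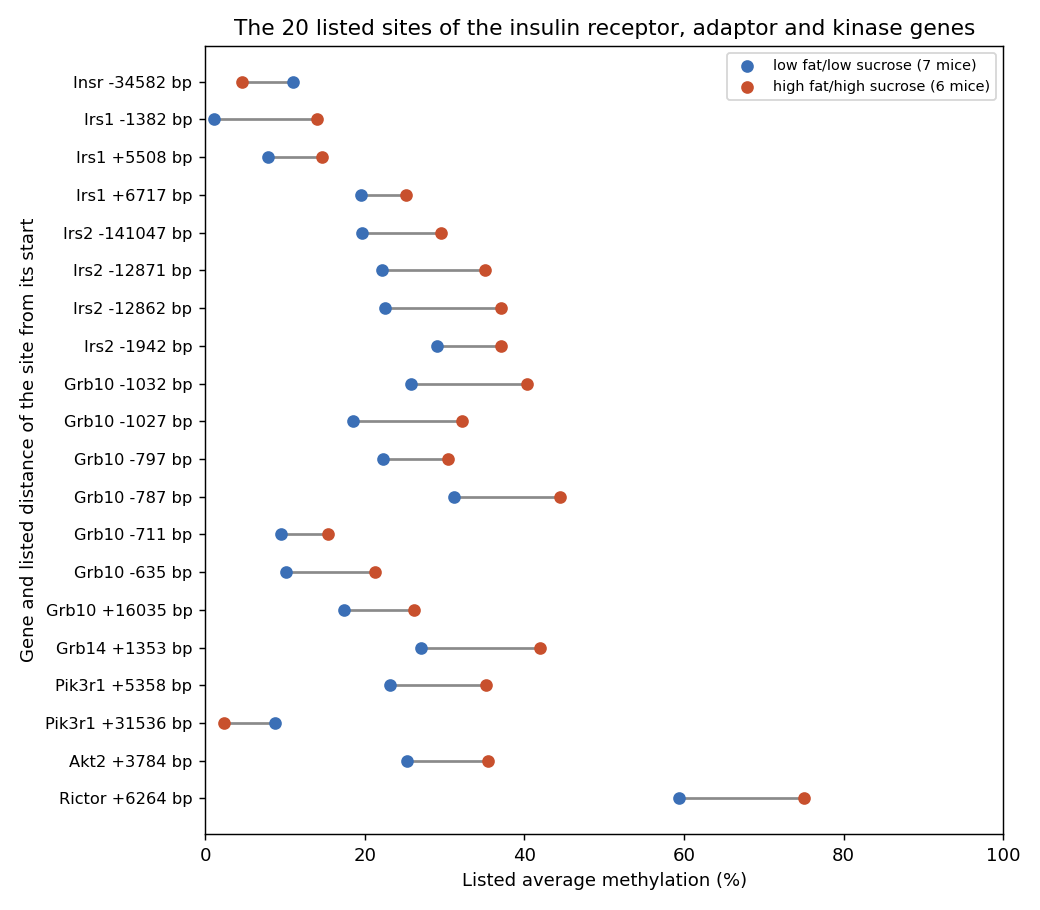
Listed average methylation (x axis, percent) at each of the 20 sites (y axis, gene and distance of the site from its listed start), with LFLS in blue and HFHS in red, joined by a grey line. Red lies to the right of blue at 18 sites, and to the left at Insr and at the Pik3r1 site 31536 bp from the start.

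The adaptor genes Grb10, Irs1 and Irs2 held 14 of the 20 sites, each with a listed site upstream of and near its start. The 250 bases before their starts are shown to let the CpG density near the starts be read. The nearest listed sites, 635 to 1942 bp upstream of their listed starts, lie farther out than these stretches reach, and whether listed and RefSeq starts coincide was not tested. The sequences are from RefSeq, build GRCm38.p6, printed 5′ to 3′ on the gene's strand, which is the minus strand for all 3, with each CG in capitals. The site positions given below are in mm9 and were not converted. The printed stretches lie at chr11:12037421-12037670 for Grb10 (the outermost of its 2 listed starts), chr1:82291440-82291689 for Irs1 and chr8:11008930-11009179 for Irs2.
Grb10: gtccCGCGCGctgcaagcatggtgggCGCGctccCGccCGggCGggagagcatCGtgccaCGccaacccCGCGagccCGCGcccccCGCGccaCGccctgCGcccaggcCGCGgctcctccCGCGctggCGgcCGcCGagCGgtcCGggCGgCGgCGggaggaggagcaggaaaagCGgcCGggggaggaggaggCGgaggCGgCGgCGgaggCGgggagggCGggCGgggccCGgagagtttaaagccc
Irs1: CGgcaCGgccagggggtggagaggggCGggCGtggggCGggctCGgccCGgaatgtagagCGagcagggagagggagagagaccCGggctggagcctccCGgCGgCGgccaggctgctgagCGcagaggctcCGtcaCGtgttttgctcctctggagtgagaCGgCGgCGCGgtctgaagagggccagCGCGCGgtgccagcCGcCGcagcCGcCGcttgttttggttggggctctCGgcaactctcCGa
Irs2: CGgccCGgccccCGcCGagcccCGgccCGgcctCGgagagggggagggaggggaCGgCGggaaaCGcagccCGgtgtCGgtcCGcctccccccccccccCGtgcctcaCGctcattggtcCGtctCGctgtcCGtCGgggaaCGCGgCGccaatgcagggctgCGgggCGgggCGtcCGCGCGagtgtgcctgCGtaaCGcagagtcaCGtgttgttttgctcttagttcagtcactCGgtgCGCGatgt

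The Grb10 stretch held 40 CG, Irs2 34 and Irs1 28. Over 32851 such stretches in the RefSeq table the median was 6 CG, and 92.1% held at least 1. Stretches with as many CG or more made up 1.31% of them for Grb10, 3.53% for Irs2 and 7.61% for Irs1. Rictor (40 CG), Pik3r1 (30 and 6 at its 2 starts) and Grb14 (24) were also represented, as were Akt1 (7 and 31) and Akt2 (10, 0, 5 and 2 at 4 starts). Insr was not among the RefSeq stretches. None of the 20 sites lay from 250 bp before to 50 bp after its listed start, where 3.13% of all listed sites lay.

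At the receptor gene itself, the authors' deposited table gives 1 Insr site, on chromosome 8 at 3314198 in mm9. Its averages in the authors' deposited table were 10.95% (LFLS) and 4.59% (HFHS), with a difference of -6.46 points (q = 0.00464; q is the authors' q-value, whose method no source used here states). The site lay 34582 bp upstream of the Insr start, with no island, shore, promoter, exon or intron flag, so its link to Insr rests on the nearest start alone. Of all listed falls, 7.30% were smaller than this one. Within 50000 bp of it the authors' deposited table lists 3 more sites, all assigned to A430078G23Rik and all lower, by -11.7 to -14.9 points. At the level of these 3 sites, 32.0% of all listed sites were higher. Those 3 averaged from 86.9 to 91.9% in LFLS in the authors' deposited table and lay 39940 to 41311 bp from the Insr site, so the falls occurred at very different levels of methylation.

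Irs1, the docking protein gene, had 3 sites on chromosome 1, all higher. Upstream of the start by 1382 bp, in a shore, the site at 82289395 averaged 1.07% in LFLS and 14.1% in HFHS (difference 13.5 points, q = 0.000658) in the authors' deposited table. This was the lowest starting level of the 20 sites. Its intronic sites, 5508 and 6717 bp into the gene at 82282507 and 82281298, changed less. The first averaged 7.92% and 14.6% (difference 5.87 points, q = 0.00223) and the second 19.6% and 25.2% (difference 6.91 points, q = 0.00887) in the authors' deposited table. A site in the promoter of the neighbouring gene Rhbdd1, which encodes a rhomboid-domain protein, lay 23404 bp from the nearest Irs1 site and was also higher, by 16.5 points in the authors' deposited table.

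Irs2, the other main docking protein gene in liver, had 4 sites on chromosome 8, all higher. The site nearest its start, at 11010371 and 1942 bp upstream with a shore and an intron flag, averaged 29.0% and 37.0% (difference 8.78 points, q = 0.000431) in the authors' deposited table. A pair of sites 9 bp apart, at 11021291 and 11021300, lay 12862 and 12871 bp upstream, also with intron flags. In the authors' deposited table the first averaged 22.6% and 37.0% (difference 12.2 points, q = 0.000467), and the second 22.1% and 35.1% (difference 10.5 points, q = 0.00360). The 2 neighbours gave nearly the same levels in both diets, with a gap of 0.43 points in LFLS and 1.92 points in HFHS. The remaining site, at 11149476, averaged 19.7% and 29.5% (difference 9.25 points, q = 0.000918) in the authors' deposited table, but lay 141047 bp upstream with no gene flag. Upstream of the listed start, the intron flags at 11010371, 11021291 and 11021300 cannot refer to the listed Irs2 transcript. Which transcript they refer to was not determined.

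Irs2 also had listed sites close by that carry other names or none. Within 50000 bp of its sites the authors' deposited table holds 9 more, of which 8 were higher and 1 was lower. At the levels of these 9 sites, 67.7 to 87.3% of all listed sites were higher, depending on the level. A pair without a symbol lay on the gene side of the Irs2 start, 3836 and 6365 bp downstream of it, counted to within 2 bp from the listed distances. The nearer, at 11004593 with an exon flag, averaged 21.2% and 38.4% (difference 16.8 points, q = 0.00529) in the authors' deposited table. At 11002064, with an intron flag, the other averaged 36.7% and 53.0% (difference 16.3 points, q = 3.91e-05) in the authors' deposited table. Both differences exceeded those of the 4 sites that carry the Irs2 symbol, which ranged from 8.78 to 12.2 points. The table places these 2 sites 3257 and 5786 bp upstream of another, unnamed start, and whether they lie within Irs2 was not tested. Farther downstream, another site without a symbol at 10974352 was higher by 13.7 points, and 2 sites named for 3930402G23Rik by 20.8 and 12.7 points, in the authors' deposited table. Far upstream, 3 sites named for the collagen gene Col4a1 were higher by 9.28 to 14.9 points and another was lower by -19.9 points in the authors' deposited table.

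**Figure D2:**
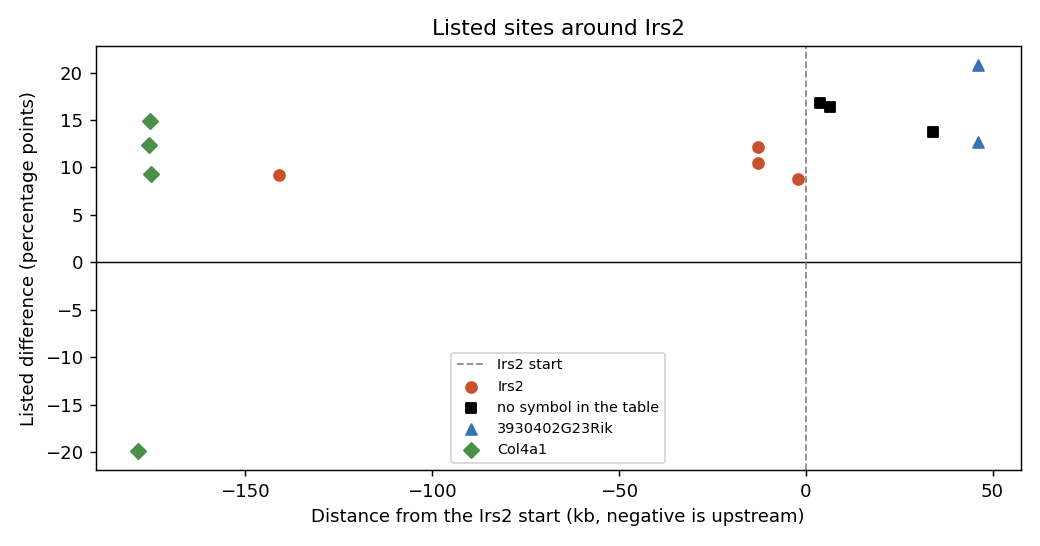
Listed difference, HFHS minus LFLS (y axis, percentage points), against distance from the Irs2 start (x axis, kb, negative is upstream) for every listed site within 50000 bp of an Irs2 site. Of the 13 sites shown, 12 lie above 0, and the exception is the Col4a1 site at -19.9 points. At the levels of these sites, 67.7 to 87.3% of all listed sites were higher.

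Grb10, the receptor-binding adaptor gene with most sites, had 7 on chromosome 11, all higher. A block of 6 lay within 397 bp, from 11938057 to 11938454, at 635 to 1032 bp upstream of the start. Of these, 4 carried the promoter flag, 1 lay in a CpG island and 5 in its shore. Across the block the averages had a mean of 19.6% in LFLS and 30.7% in HFHS in the authors' deposited table. Listed differences in the block ran from 8.26 to 14.7 points in the authors' deposited table. The 6 sites come from the same animals and can share reads, so they are not independent.

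In each diet, the range of levels over the 6 sites of the Grb10 block was wider than the largest listed difference in the block. The HFHS average lay above the LFLS average at all 6. The island site at 11938057 averaged 10.2% and 21.2% (difference 11.9 points, q = 0.00315) in the authors' deposited table. Next, 76 bp farther upstream, 11938133 averaged 9.51% and 15.4% (difference 8.26 points, q = 0.000344) in the authors' deposited table. The site at 11938209 had the highest levels of the block, 31.1% and 44.4%, and the smallest q of the 20 sites (difference 14.7 points, q = 2.52e-06) in the authors' deposited table. Only 10 bp away, 11938219 averaged 22.3% and 30.5% (difference 8.35 points, q = 0.00775) in the authors' deposited table. The outermost sites, 11938449 and 11938454, lie 5 bp apart. They averaged 18.5% and 32.2% (difference 13.7 points, q = 0.00119) and 25.8% and 40.4% (difference 14.2 points, q = 0.00199) in the authors' deposited table. Low fat/low sucrose levels thus ranged from 9.51 to 31.1% and HFHS levels from 15.4 to 44.4%. The averages do not separate the maternal from the paternal copy of this imprinted gene.

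**Figure D3:**
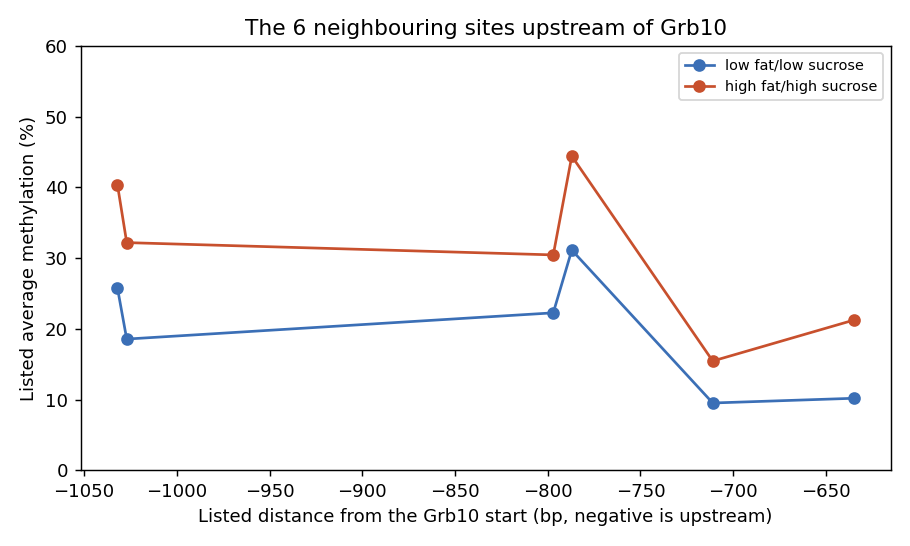
Listed average methylation (y axis, percent) of the 6 neighbouring Grb10 sites against their distance from the start (x axis, bp, negative is upstream), with LFLS in blue and HFHS in red. Both lines peak at -787 bp, at 31.1% and 44.4%, and the red line is above the blue one at every site.

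A seventh Grb10 site, intronic and 16035 bp downstream of a second listed start, at 11910293, averaged 17.4% and 26.2% (difference 8.51 points, q = 0.000615) in the authors' deposited table. Blocks that move one way are common in the table. Of 84 clusters with at least 6 sites, 55 (65.5%) were higher at every site and 14 lower at every site. Of the 150 genes with exactly 7 sites, 35 (23.3%) had all of them higher. Neither the clusters nor the genes were matched to Grb10 for level, nor the genes for the spacing of their sites.

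Grb14, the second adaptor that restrains the receptor, had 1 site, intronic and 1353 bp into the gene on chromosome 2 at 64812451. It averaged 27.1% in LFLS and 41.9% in HFHS (difference 13.2 points, q = 0.00161) in the authors' deposited table.

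Downstream of the adaptors, Pik3r1 had 2 intronic sites on chromosome 13 that moved in opposite directions. The site 5358 bp into the gene, at 102532815, averaged 23.1% and 35.3% (difference 11.4 points, q = 0.00141) in the authors' deposited table. Deeper in the gene, 31536 bp from the start at 102506637, the other averaged 8.77% and 2.33% (difference -6.01 points, q = 0.00761) in the authors' deposited table. Akt2, the main AKT kinase of insulin action in liver, had 1 intronic site 3784 bp from its start on chromosome 7 at 28380361, with averages of 25.3% and 35.4% (difference 12.3 points, q = 0.00153) in the authors' deposited table. A site of 2310022A10Rik, 21084 bp from it, was lower by -15.2 points in the authors' deposited table, so listed sites near Akt2 did not all rise.

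Rictor, the defining subunit of mTORC2, had 1 intronic site 6264 bp from its start on chromosome 15 at 6664643. It averaged 59.4% and 75.0% (difference 14.8 points, q = 0.000152) in the authors' deposited table. This was the largest difference of the 20 sites, and 72.9% of all listed rises were smaller. It was also the only one of the 20 sites with a LFLS average above 40%.

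Most of the sites started at a low level, though not Rictor. In LFLS, 19 of the 20 averaged under 40%, against 45.6% of all listed sites, and the medians were 20.9% and 47.4% in the authors' deposited table. Level and direction went together in the whole table: 87.3% of listed sites with a mean of the 2 averages of 20 to 30% were higher, and 35.4% of those at 60 to 70%. From 10 to 40%, all 16 sites of these genes were higher, where 82.0 to 87.3% of all listed sites were, depending on the level. Below 10%, 1 of 3 was higher (Irs1) and 2 were lower (Insr and Pik3r1), where 68.3% of all listed sites were higher. At the level of each of the 20 sites, 79.8% of listed sites were higher on average, against 18 of 20 observed and 57.6% of the whole table. Rictor rose at a level, 67.2%, where most listed sites fell.

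**Figure D4:**
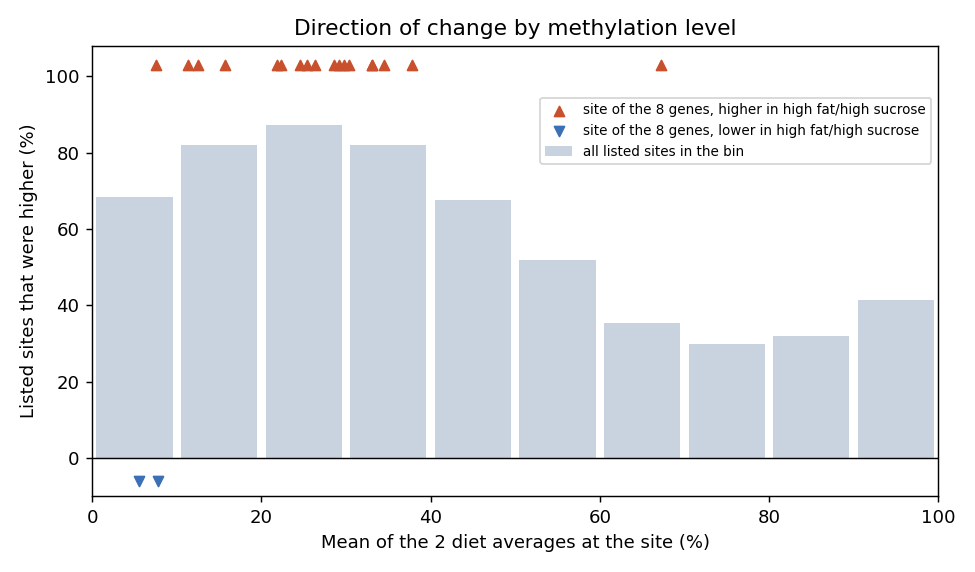
Share of all listed sites that were higher in HFHS (bars, y axis, percent) by the mean of the 2 diet averages (x axis, percent, bins of 10), with the 20 sites of the 8 genes as triangles at their own level, pointing up above the bars where higher and down below them where lower. All but 1 of the 18 rises sit below 40%, where the bars reach from 68.3 to 87.3%.

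By position, most sites carried an intron or a shore flag. The intron flags include those of Irs2 sites upstream of its listed start, so they do not all mark introns of the named genes. An intron flag was on 11 (55.0%, against 49.1% of all listed sites) and a shore flag on 8 (20.5% of all). A promoter flag was on 4 (17.5% of all), an island flag on 1 (7.12% of all) and an exon flag on 0 (13.3% of all). Of the 8 shore sites 5 and of the 4 promoter sites all 4 were in the Grb10 block, so without Grb10 the counts were 3 and 0 of 13. The rest of the genes had 11 of 13 sites higher (84.6%). At the levels of these 13 sites, 77.3% of all listed sites were higher. Within 10000 bp of a start lay 14 of the 20 sites, against 52.4% of all, and these 14 were all higher. How many of all listed sites within that distance were higher was not counted, so direction by distance was not tested. The falls lay 34582 bp (Insr) and 31536 bp (Pik3r1) from a start.

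Other genes of the insulin pathway had nearly equal numbers of rises and falls. A list of 96 such genes in 4 groups had 160 sites at 53 genes, of which 79 were higher and 81 lower (49.4% higher, median difference -5.52 points, against 57.6% and 7.41 points over all sites). Sites were all higher at 13 of these genes, all lower at 17 and mixed at 23. Their median LFLS average was 50.7%, against 20.9% at the sites described above. At the levels of the list's sites, 57.6% of listed sites were higher.

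Among other receptor-proximal adaptors and phosphatases, 31 of 51 sites were higher (60.8%), at 17 of 28 genes. At the levels of these sites, 60.7% of all listed sites were higher, nearly the same share. Grb7, which encodes the other adaptor of the GRB10 and GRB14 family, had 6 of 6 sites higher. Its site of smallest p (the first site, for this and the other genes of the list), in an intron, averaged 9.79% and 24.1% (difference 15.5 points, q = 7.22e-06) in the authors' deposited table. Insrr, the gene of a receptor related to that of insulin, had 1 site with a rise of 21.7 points, and Dok5, an adaptor gene, 2 of 2 higher with 7.54 points at the first, in the authors' deposited table. Igf1r, the IGF1 receptor gene, had 2 of 6 higher and Gab1, a docking protein gene, 4 of 8; both were chosen after their values were seen.

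PI3-kinase and lipid phosphatase genes had 12 of 34 sites higher (35.3%), at 11 of 18 genes, with a median difference of -8.68 points. At the levels of these sites, 55.9% of all listed sites were higher. The promoter site of Pik3cg, a catalytic subunit best known from blood cells, averaged 62.1% and 45.9% (difference -17.6 points, q = 8.55e-07) in the authors' deposited table. Pik3cd, another catalytic subunit of blood cells, had 4 of 10 higher and -13.4 points at its first site, in a promoter, in the authors' deposited table.

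For the AKT family with its targets and phosphatases, 22 of 46 sites were higher (47.8%), at 13 of 20 genes. At their levels the share over all listed sites was 56.4%. Sgk1, an AKT-related kinase gene, had 3 of 12 higher and -12.8 points at its first site, in an exon, in the authors' deposited table. Prkcz, an atypical protein kinase C gene, had 0 of 2 higher (first site -13.0 points) and the forkhead factor gene Foxo3 had 5 of 7 (first site 10.8 points) in the authors' deposited table. Genes of the mTOR complexes and their control had 14 of 29 sites higher (48.3%), at 12 of 30 genes, against 56.2% of all listed sites at such levels. First sites there were lower at Depdc5 (-14.6 points), Ddit4 (-19.8 points) and Rheb (-11.3 points) in the authors' deposited table. Depdc5 and Ddit4 encode restraints on mTORC1 and Rheb its activator, with 0 of 1, 0 of 3 and 1 of 2 sites higher.

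**Figure D5:**
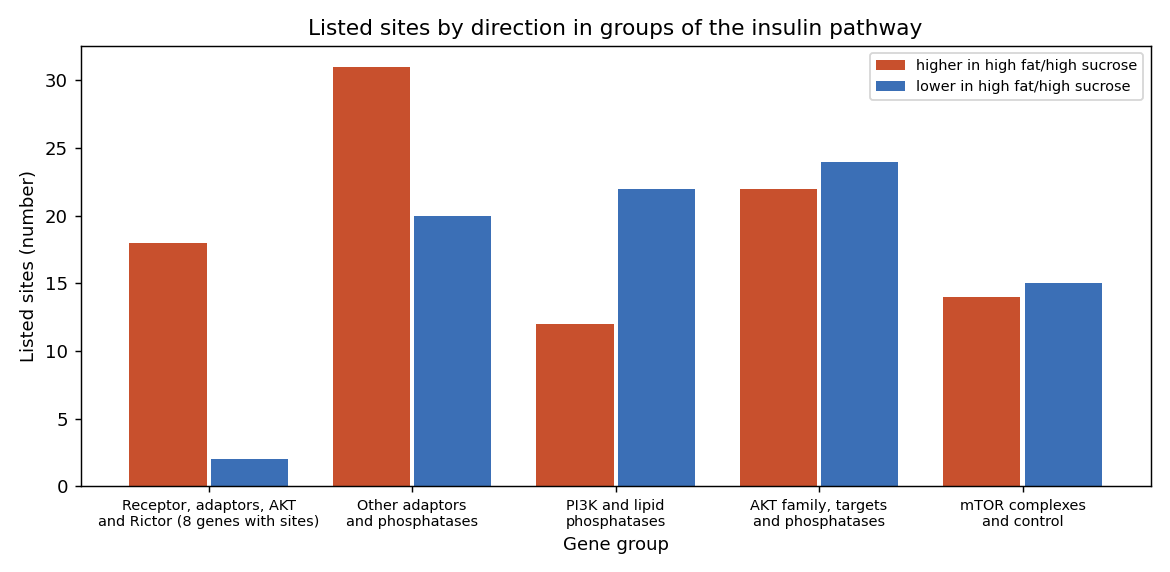
Number of listed sites (y axis) that were higher (red) or lower (blue) in HFHS for the 8 genes described here and for 4 groups of other insulin pathway genes (x axis). The 8 genes have 18 higher and 2 lower, and the PI3-kinase group has 12 higher and 22 lower.

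Sites at marker genes of liver cell types were also listed, and their part in the results above was not tested. Hepatocyte markers had 31 of 33 sites higher (12 of 18 genes listed), with a median LFLS average of 21.7%. At the levels of the hepatocyte marker sites, 80.8% of all listed sites were higher, against 56.9% at those of the endothelial and 53.2% at those of the lymphocyte markers. Endothelial markers had 18 of 41 higher (11 of 14 genes), lymphocyte markers 5 of 14 (5 of 13), bile duct markers 8 of 16 (7 of 8), stellate cell and fibroblast markers 3 of 5 (5 of 11) and adipocyte markers 1 of 4 (2 of 7). The share of all listed sites at the same levels was 58.8% for bile duct, 56.4% for stellate cell and fibroblast and 39.1% for adipocyte markers. Of 13 macrophage and neutrophil markers 0 were listed.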

How the data were processed

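Liver DNA from 13 mice was enriched with an Agilent SureSelect methylation capture protocol, per the labels' protocols. CASAVA 1.8, Trim Galore, Bismark and methylKit and build mm9 are named in the submitters' processing notes, without settings. Per the file headers, the authors deposited for each site the p-value and q-value of the diet comparison, the difference in points and 1 average percent per diet. No source used here states their test, weighting or coverage limits. In the table the largest q was 0.0100 and the smallest absolute difference 5.00 points, so the list is filtered. The listed difference and the difference of the averages (HFHS minus LFLS) had the same sign at all 23904 sites.

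Rows were matched by exact symbol, and the genes named are the 9 members, genes within 50000 bp, and the 3 of smallest p per pathway group; 1 gene the rule takes is not reported here. Members and lists were chosen with earlier results of these data known, so no list was tested. Depth is unknown and no test of mice was possible. Distances are to the listed feature, read as a transcription start. Joining sites within 1000 bp and shares by level (bins of 10 points) were tested on simulated data. Python 3.11.15, pandas 2.3.3 and numpy 2.4.6 were used. Alternatives covered the difference used, stricter limits, distance, joining and symbol matching.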

Additional observations from a re-analysis of the deposited data

How the results depend on the processing

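With the difference of the 2 averages in place of the listed one, the 18 rises and 2 falls kept their numbers. So did the 79 and 81 of the pathway list. All 32 sites compared kept their sign and moved by under 1.5 times. These were the 20 sites and the first sites of the pathway genes that the naming rule takes. Sites of neighbouring genes were not among them. The 2310022A10Rik site near Akt2 had -15.2 points listed and -9.86 points by the averages. At 10 points or more the rises and falls were 11 and 0, at q under 0.001 8 and 0, with promoter sites alone 4 and 0, and within 10000 bp of a start 14 and 0. Such limits keep fewer sites. Each left out both falls, which were of -6.46 points (Insr, q = 0.00464) and -6.01 points (Pik3r1, q = 0.00761). All 4 promoter sites lay in the Grb10 block, and 65.2% of all listed promoter sites were higher. For the other limits, the share of all listed sites that were higher was not counted. Counted by gene, 7 had a median above 0 (Pik3r1 among them, with 1 site each way) and 1 below. Without Grb10, an alternative chosen after seeing the data, 11 rises and 2 falls were left. At the levels of those sites, 77.3% of all listed sites were higher. Joined within 200 bp the clusters were 13 higher and 2 lower, and matching by synonym or transcript gave the same 20 sites. The median difference ranged from 10.3 to 12.1 points over its alternatives. For the pathway list, q under 0.001 left 14 higher and 18 lower, and the limit of 10000 bp left 27 and 39. Leaving out mice and coverage minimums were not run. No paired analysis was possible because the 2 averages carry no replicates. Depth limits every average by an unknown amount.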
